A study of Homo sapiens with 3 samples.

Results

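ERRγ ChIP-seq peaks were examined at the genes of the estrogen-related receptors (ERRs) and of the proteins that work with them. The members were 9 genes, taken by name. They were the 3 receptor genes ESRRA, ESRRB and ESRRG, the PGC-1 coactivator genes PPARGC1A, PPARGC1B and PPRC1, the muscle regulator gene PERM1 (C1orf170 in the deposited table), the coactivator gene NCOA1 and the corepressor gene NCOR1. Every peak that the table named for one of them was taken, at any distance, which gave 13 of 15223 peaks. The 13 peaks fell on 4 genes, with 6 at ESRRG, 4 at PPARGC1A, 2 at ESRRA and 1 at ESRRB, while 5 genes had no peak. The identifier column of the table gave the same 13 peaks.

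The cells were BT-474, a luminal breast cancer cell line with amplified ERBB2 that has long been in use. They grew in regular DMEM, received vehicle and were harvested 90 min after fresh medium was added. There were 2 libraries from immunoprecipitation with a custom ERRγ antibody and 1 library of input DNA, sequenced as single 50 bp reads. All libraries came from this line under the same conditions, so no treatment is compared. The table is 1 merged peak list without a value per library or for the input. It gives no replicate spread, the depth is unknown, and no test was run. Each peak is named for the gene with the nearest start site, so a peak that lies inside or beside a gene can carry another gene's name. The deposited peak score has no stated unit and was used only to rank peaks within this list.

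ERRs are orphan members of the nuclear receptor family. They act without a known natural hormone and bind DNA at the response element TCAAGGTCA, whose core AAGGTCA is an extended nuclear receptor half-site. Their activity depends largely on coactivators, above all the PGC-1 family, with which they drive genes of mitochondrial respiration and fatty acid oxidation. The gene of ERRα is itself a known target of ERRs and PGC-1α, a loop that raises ERRα when PGC-1α is induced. PERM1 is induced by PGC-1 and ERRs in muscle, NCOA1 encodes a coactivator of many nuclear receptors, and NCOR1 encodes a corepressor that recruits histone deacetylases.

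Promoter windows from RefSeq show what lies around the starts of these genes. Each window holds 300 bases, from 250 before to 50 after an annotated start, in the GRCh38.p14 build. The peaks are on hg19 and no sequence of that build was at hand, so the windows describe promoters and not peaks. All 9 genes matched, with 23 windows. Of the windows, 3 are printed: that of ESRRA, whose promoter had the strongest member peak; the ESRRG window that holds the core element; and an NCOA1 window, as a promoter also rich in GC boxes, of a gene without a peak. Capitals mark the GC box GGGCGG and the core AAGGTCA on either strand.
ESRRA (chr11:64305274-64305573, plus strand): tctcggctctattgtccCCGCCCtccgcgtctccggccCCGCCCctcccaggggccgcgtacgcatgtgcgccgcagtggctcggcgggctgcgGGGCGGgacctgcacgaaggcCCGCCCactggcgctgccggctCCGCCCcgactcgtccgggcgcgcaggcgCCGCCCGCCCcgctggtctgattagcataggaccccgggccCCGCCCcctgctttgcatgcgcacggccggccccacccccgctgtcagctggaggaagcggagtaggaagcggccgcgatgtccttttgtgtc
ESRRG (chr1:217076943-217077242, minus strand): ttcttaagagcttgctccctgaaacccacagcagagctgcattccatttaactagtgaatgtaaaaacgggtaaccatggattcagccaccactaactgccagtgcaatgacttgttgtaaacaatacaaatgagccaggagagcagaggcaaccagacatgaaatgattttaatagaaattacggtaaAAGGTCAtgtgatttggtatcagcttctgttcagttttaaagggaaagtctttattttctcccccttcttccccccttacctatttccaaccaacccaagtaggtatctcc
NCOA1 (chr2:24491004-24491303, plus strand): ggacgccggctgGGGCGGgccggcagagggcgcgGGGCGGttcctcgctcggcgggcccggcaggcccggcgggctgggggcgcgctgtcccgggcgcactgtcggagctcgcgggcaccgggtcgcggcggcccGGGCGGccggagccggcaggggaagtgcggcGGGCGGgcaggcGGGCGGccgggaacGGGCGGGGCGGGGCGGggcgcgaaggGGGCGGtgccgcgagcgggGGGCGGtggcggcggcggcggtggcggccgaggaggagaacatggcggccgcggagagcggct

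The full element TCAAGGTCA was in 0 of the 23 windows, and in 124 of all 35116 RefSeq windows (0.353%). With any second letter, TNAAGGTCA, it was also in 0 of 23, against 0.951% of all windows. The core AAGGTCA, which both longer forms contain, was in 1 of 23 windows, against 1377 of all windows (3.92%). That match began at position -61 from an ESRRG start (position 1 is the first transcribed base) and is the run in capitals above. The cyclic AMP response element TGACGTCA was in 0 of 23 windows, against 1.85% of all windows. The GC box was in 5 of the 23 windows, from 4 genes, against 45.0% of all windows. The ESRRA window had 8 GC boxes, 2 of which overlap, and the NCOA1 window had 10, some of them overlapping. By gene, a GC box was in a window of 3 of the 4 members with a peak (ESRRA, ESRRG and PPARGC1A) and of 1 of the 5 without, NCOA1, with 1 to 8 windows per gene. That is 4 of the 9 members, against 10181 of 15843 protein-coding genes searched alike (64.3%). These are letter matches in short windows and say nothing of sites elsewhere in a peak.

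Among the receptor genes, ESRRA had the strongest peak of all members, over its promoter. The peak lay on chromosome 11 from 64071145 to 64074443 (hg19) and scored 3100. It reached from -1899 to 1399 bp relative to the start of transcript NM_004451, so that it held the start site, and was centred at -250 bp. At 3299 bp it was also wide, against a median of 1220 bp over all 15223 peaks. Only 175 peaks of the list scored as high or higher, of which 158 tied at exactly 3100, so the rank within this group has no meaning. ESRRA was 1 of 19 protein-coding genes (0.0948% of 20037) with a peak of 3100 or more within 1 kb of a start. Among the 917 peaks within 1 kb of a start, 11 were at least as wide as that of ESRRA, itself included, and 67 had an equal or higher GC fraction.

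The ESRRA promoter peak was rich in GC, with a GC fraction of 0.649, against a median of 0.405 over all peaks and 0.540 over the peaks within 1 kb of a start. Its CpG fraction was 0.0655, against 0.0488 over the promoter peaks. Its mean conservation score, which runs from 0 to 1, was 0.31, against 0.12 over the promoter peaks. The other ESRRA peak lay 5592 bp after the start, in intron 2 of 6 (64078014 to 64079258). It scored 55.3, close to the lowest score of the list, 50.0, and its conservation of 0.01 was the lowest of the 13. The table placed it in a MIRb element, an old short interspersed repeat. The ESRRA promoter and intron peaks were 3570 bp apart. Both neighbours of ESRRA in the gene order of RefSeq, CATSPERZ and TRMT112, had no peak named for them.

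ESRRG, the gene of the immunoprecipitated receptor, had more peaks than any other member, with a highest score of 333. Its 6 peaks spread over 490 kb of chromosome 1, and 385 of 20037 protein-coding genes (1.92%) were named for as many peaks or more. Gene length was not taken into account in that count. Of the 6 peaks, 1 lay before the outermost start used in the table and 5 lay in introns of transcript NM_001134285. From the outermost start inward they scored 51.9, 160, 99.8, 333, 88.3 and 101. The median score over all peaks was 106, so only 2 of the 6 exceeded it.

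The table measured these distances from different transcripts. The promoter peak and the intron 1 peak referred to a start at 217262976 and the intron 3 peaks to one 366 kb further inward, drawn as a dotted line in the plot of positions. The intron 5 peak referred to a start 12 bp from the latter, that of NR_024099.

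The ESRRG promoter peak was weak and among the most conserved. It ran from 217263081 to 217264034 and scored 51.9. Of the 917 peaks within 1 kb of a start, 22 scored as low or lower, itself included. It lay wholly upstream, from -1058 to -105 bp, and did not hold the start the table used, whereas the ESRRA peak did. RefSeq in GRCh38.p14 lists 8 start windows of ESRRG over 414 kb, and whether the peak holds another of these starts was not tested. Its mean conservation was 0.70, reached by 52 of all 15223 peaks and by 6 of the 917. The ESRRG peak in intron 1 of 8 (217250972 to 217252290), 11345 bp after the same start, had a conservation of 0.59, reached by 113 peaks of the list, and scored 160. Whether that peak holds another of the 8 listed starts was not tested either. Near starts, the 15 peaks within 1 kb of a start with a conservation of 0.5 or more had a median score of 63.3, against 164 for the 902 less conserved ones. Over all distances, the 204 peaks with a conservation of 0.5 or more had a median score of 102, against 106 for all peaks. The scores of the 15 peaks near starts ran from 51.4 to 1970, so the ESRRG promoter peak stood near their lower end.

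Intron 3 of ESRRG held the gene's strongest peak. It scored 333, higher than 82.4% of all peaks, and ran from 216939678 to 216941040. A weaker peak of 88.3 (216938369 to 216939453) ended 224 bp away. The strongest peak overlapped a MIR3 repeat and had a GC fraction of 0.371 and a conservation of 0.25, against 0.423 and 0.15 in the weaker peak beside it. The third peak in intron 3 (216995342 to 216996516) scored 99.8 and had the lowest GC fraction of the 13, 0.350. The peak in intron 5 (216773836 to 216774972) scored 101 and was of another kind. The table placed it in a CpG island, with a GC fraction of 0.535, a CpG fraction of 0.0528 and a conservation of only 0.03.

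ESRRB had a single peak, far inside the gene. ERRβ, its product, is best known from embryonic stem cells, the placenta and the inner ear. The peak lay 75447 bp after the start, in intron 4 of 10, on chromosome 14 from 76912484 to 76913791. It scored 434, higher than 86.4% of all peaks and higher than each of the 6 ESRRG peaks. The table placed it in a MamRep605 repeat of unknown class. Its GC fraction was 0.455 and its conservation 0.05, below the median of 0.07 over all peaks. No ESRRB peak lay within 50 kb of a start.

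**Figure D1:**
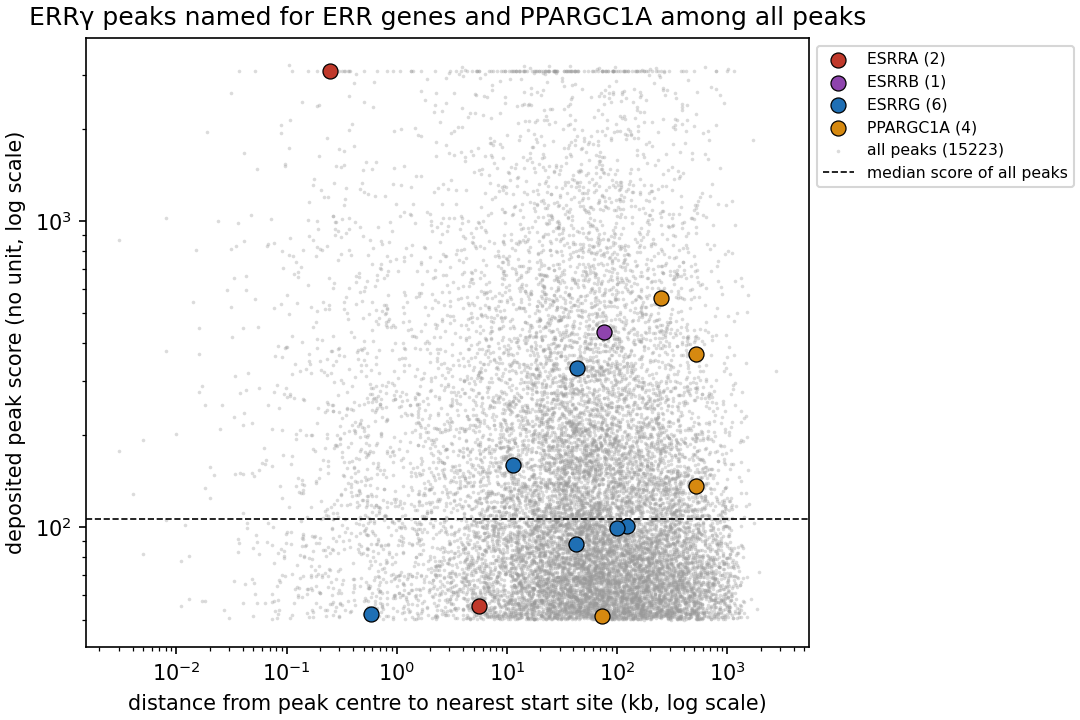
Deposited peak score (no unit, log scale) against the distance from the peak centre to the nearest start site (kb, log scale), with the 13 member peaks in colour and all 15223 peaks in grey. The ESRRA promoter peak sits at the row of tied scores of 3100, the ESRRG promoter peak at 51.9 is near the bottom, and the dashed line is the median of all peaks, 106.

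**Figure D2:**
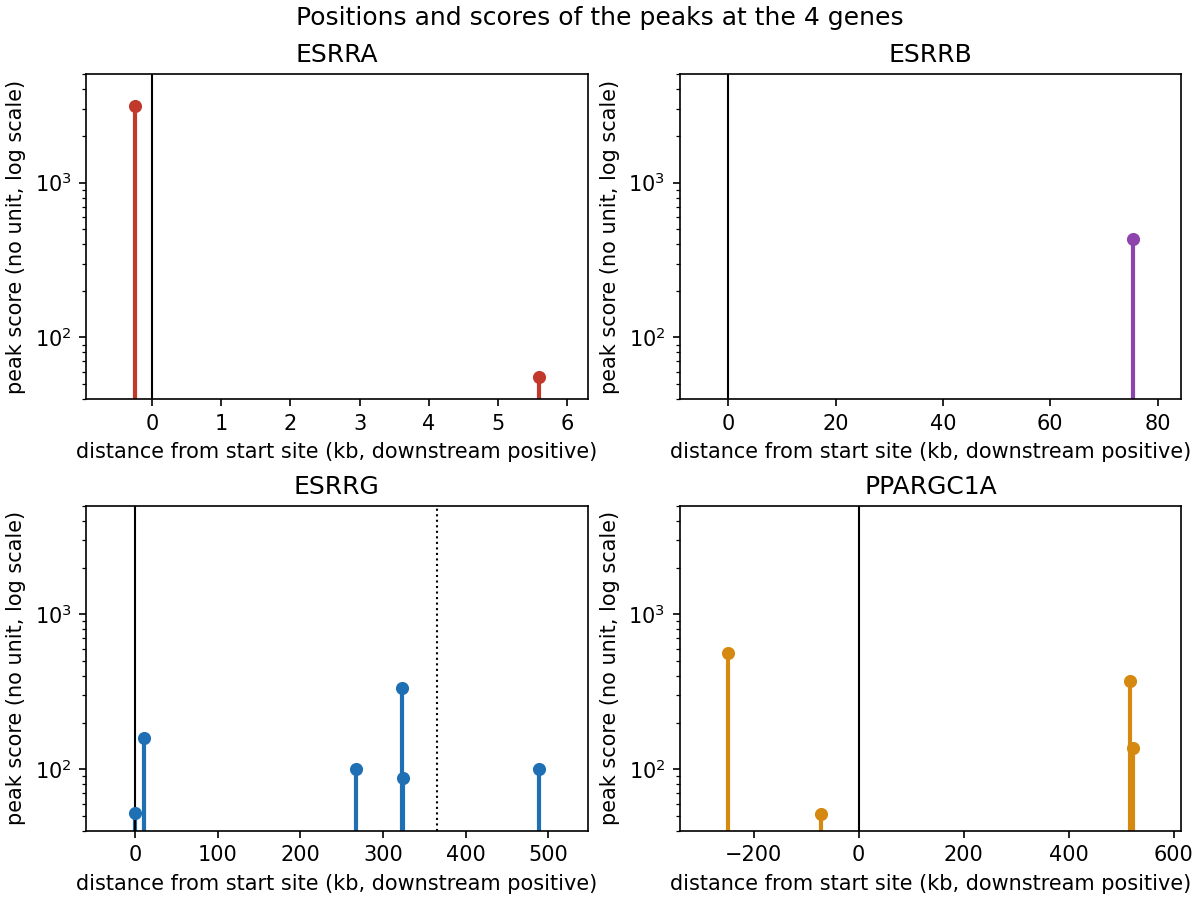
Score (no unit, log scale) and position (kb from the start site, downstream positive) of each peak at ESRRA, ESRRB, ESRRG and PPARGC1A, with 1 stem per peak. For ESRRG, positions run from the outermost start used in the table, and the dotted line marks the inner start 366 kb away; the PPARGC1A peaks all stand far from its start.

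Of the coactivator genes, PPARGC1A had 4 peaks, all intergenic and the nearest 72.6 kb from the start the table used, that of NM_013261 at 23891700 on chromosome 4. PGC-1α, its product, is the inducible coactivator of mitochondrial biogenesis. Upstream, a peak at -248 kb (24138957 to 24140656) scored 560, the second highest of the 13 and higher than 89.4% of all peaks. A weak peak of 51.4 stood at -72.6 kb (23963835 to 23964807). Beyond the far side of the gene, 2 peaks 4737 bp apart scored 369 (23375359 to 23376582, 516 kb) and 137 (23369580 to 23370621, 522 kb). A gap of 587 kb with no peak named for PPARGC1A separated them from the nearest upstream peak.

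The annotated starts of PPARGC1A bear on what its distances mean. RefSeq in GRCh38.p14 lists 2 start windows of the gene, 592 kb apart. Whether the start in the table is either of them, and whether the upstream peaks called intergenic lie within a longer transcript, were not tested, since positions were not carried between builds. The 4 peaks had GC fractions of 0.380 to 0.450. Their conservation was 0.23 at -248 kb, 0.34 at -72.6 kb, 0.10 at 516 kb and 0.18 at 522 kb, each above the median of 0.07 over all peaks. The weakest of the 4 was therefore the most conserved of them, as the weakest was at ESRRG. At ESRRA the order was the reverse, with a conservation of 0.01 in the peak of 55.3 and 0.31 in that of 3100.

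PPARGC1B, PPRC1, PERM1, NCOA1 and NCOR1 had 0 peaks named for them, at any distance. PGC-1β (PPARGC1B) and PRC (PPRC1) are the other members of the PGC-1 family. Because the table names only the nearest start, the peaks on either side were found from the gene order in RefSeq. In each case 0 peaks lay between the flanking ones, which bounds the stretch that holds the gene. The lengths ranged between 330 kb and 1175.4 kb, while the median gap between neighbouring peaks over all 15199 gaps of the list was 73.8 kb. A gene falls more often in a long gap than in a short one, so this median is no yardstick for the 5 genes.

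NCOA1 lay in the longest of these stretches, 1175.4 kb on chromosome 2, between peaks named for ATAD2B (24124659 to 24125569, score 57.8) and EFR3B (25301012 to 25302661, 88.2). NCOR1 lay in 590 kb of chromosome 17. Its nearest flanking peak scored 50.2, almost the minimum of the list, and was named for the microRNA gene MIR1288 (16153717 to 16154644), within intron 2 of 6 of NM_004278. On the other side of NCOR1 the peak was named for TRIM16 (15562620 to 15563739) and scored 266. PERM1 was enclosed by 443 kb of chromosome 1 without a peak, between those of FAM41C (815253 to 817421, 145) and GLTPD1 (1260169 to 1261185, 173). PPRC1 was enclosed by 404 kb of chromosome 10, between peaks named for KCNIP2 (103653190 to 103654148, 130) and GBF1 (104058262 to 104059372, 73.8).

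Of the 10 peaks that flank these 5 genes, the highest score stood next to PPARGC1B. The stretch without a peak around it was 330 kb of chromosome 5, and 1 end of it was a peak of 889 (149257155 to 149258653) in intron 17 of 21 of NM_000440. That peak was named for PDE6A, the next gene after PPARGC1B in the RefSeq order, and lay 66452 bp from the start of PDE6A. PDE6A was named for 4 peaks, 2 of them within 10 kb of its start. On the other side of PPARGC1B the flanking peak, of CSNK1A1 (148925954 to 148927175), scored 74.7. Which gene the peak of 889 acts on was not tested.

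**Figure D3:**
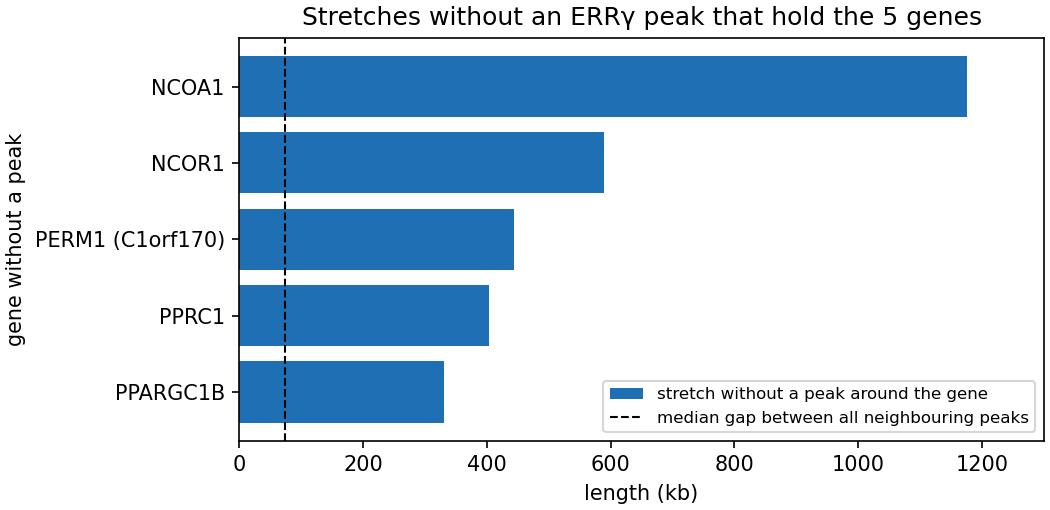
Length (kb) of the stretch without an ERRγ peak that holds each of the 5 genes with no peak, drawn as bars. The bars run between 330 kb for PPARGC1B and 1175.4 kb for NCOA1, and the dashed line is the median gap between all neighbouring peaks, 73.8 kb. A gene falls more often in a long gap than in a short one, so the line is no yardstick for the 5 genes.

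Together the 13 peaks were more conserved than the list as a whole and of like width. Their median conservation was 0.18 (range 0.01 to 0.70), against 0.07 over all peaks, and 10 of the 13 stood above that value. Their median score was 137 (51.4 to 3100), against 106, with 6 of 13 below the overall median. The median width was 1224 bp, against 1220 bp, and the median GC fraction 0.448, against 0.405. In position, 7 of 13 were intronic (53.8%), against 41.6% of all peaks, and 2 were at promoters by the authors' annotation, against 3.74%. Repeats were the annotated feature of 3 of 13 peaks (23.1%), against 34.7% of all peaks. Those of the MIR family were the feature of 2 of the 13 (15.4%), against 8.68% of all peaks. With 13 peaks on 4 genes, some within one gene, these are descriptions only.

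**Figure D4:**
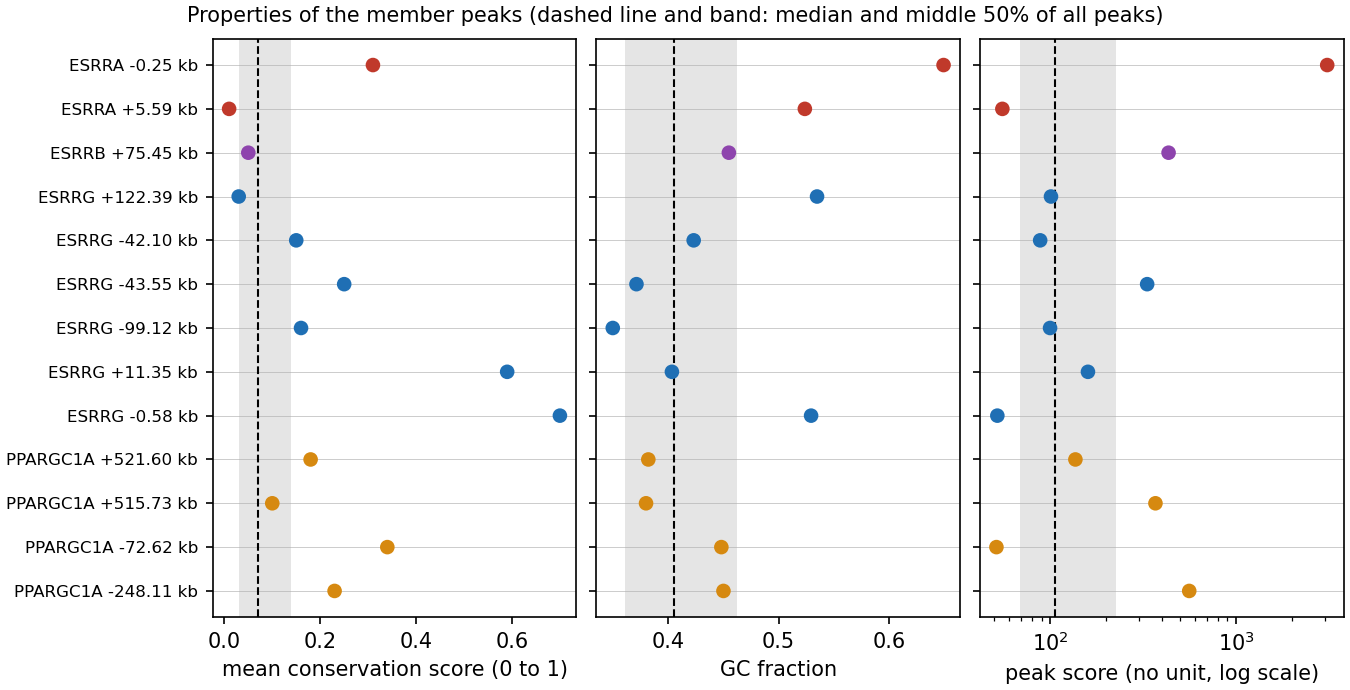
Mean conservation (0 to 1), GC fraction and peak score (no unit, log scale) of each of the 13 member peaks, labelled by gene and distance to the start used in the table. The dashed line and grey band give the median and the middle 50% of all peaks; the ESRRG peaks at 0.70 and 0.59 have the highest conservation, and the ESRRA promoter peak the highest GC fraction and score.

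Counted by gene, 2 of the 9 members, ESRRA and ESRRG, had a peak within 1 kb of a start (22.2%), against 834 of 20037 protein-coding genes (4.16%). The same 2 genes made up the count within 10 kb, where the background was 2301 genes (11.5%), and within 50 kb, where it was 4520 (22.6%). At any distance 4 of 9 members had a peak (44.4%), against 5938 genes (29.6%). Both promoter counts came from receptor genes, and 0 of the 6 coregulator and partner genes had a peak named for them within 50 kb. Distances from the starts of these 6 genes to peaks named for other genes were not measured.

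Other coregulators were also counted, in 3 lists of 60 genes in all, each found in RefSeq. These lists were chosen with earlier results of these data known, so their shares are descriptions only. Among the 3 lists, corepressors and their partners were named most often. Of 16 genes, 6 had a peak within 10 kb (37.5%) and 12 at any distance (75%), against 11.5% and 29.6% of protein-coding genes. Within 1 kb the count was 3 (18.8%), against 4.16%. NR0B2, which encodes the receptor inhibitor SHP, had a promoter peak of 453 at -172 bp. RCOR1, a cofactor of the repressor REST, had a peak of 401 in an intron, at 1957 bp. PHB2, a mitochondrial prohibitin that also represses the estrogen receptor, had a peak of 253 at 237 bp. TBL1XR1, a subunit of the NCoR complex, had 241 at -1786 bp and was named for 23 peaks, a number reached by 14 protein-coding genes. GPS2 and HDAC3, which are further subunits of that complex, as well as NR0B1 and SIN3A, had no peak.

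NRIP1, a corepressor that estrogen induces, is named here after its values were seen. It had 8 peaks, none within 10 kb, with the strongest scoring 2166 at -145 kb (chromosome 21, 16581373 to 16583438). NCOR1 itself had 0.

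Of 20 further coactivators, 7 had a peak within 10 kb (35%), against the 11.5% of all protein-coding genes, and 2 had one within 1 kb, where the share over all protein-coding genes was 4.16%. At any distance 9 of the 20 had a peak (45%), against 29.6%. PNRC2, a nuclear receptor coactivator that also acts in mRNA decay, had a peak of 1318 at -2650 bp. NCOA4, a coactivator known for ferritin turnover, had a promoter peak of 1024 at -8 bp. NCOA7 (181 at -2786 bp) and SMARCA4, an ATPase of chromatin remodelling (168 at 7813 bp), followed. The acetyltransferase genes EP300 and CREBBP and the helicase genes DDX5 and DDX17 had no peak, as was the case for 11 of the 20.

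Modifiers and partner factors of PGC-1 were near the background within 10 kb and at any distance. Of 24 genes, 2 had a peak within 10 kb (8.33%), against 11.5%, and 7 at any distance (29.2%), against 29.6%. Within 1 kb the count was also 2 (8.33%), against 4.16% of protein-coding genes. The 2 were LPIN1, encoding a phosphatidate phosphatase that acts with PGC-1α (816 at 612 bp), and GABPA, a subunit of a factor that controls respiratory genes (510 at -187 bp). ATF2, FOXO1, GABPB1 and KAT2A had no peak.

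**Figure D5:**
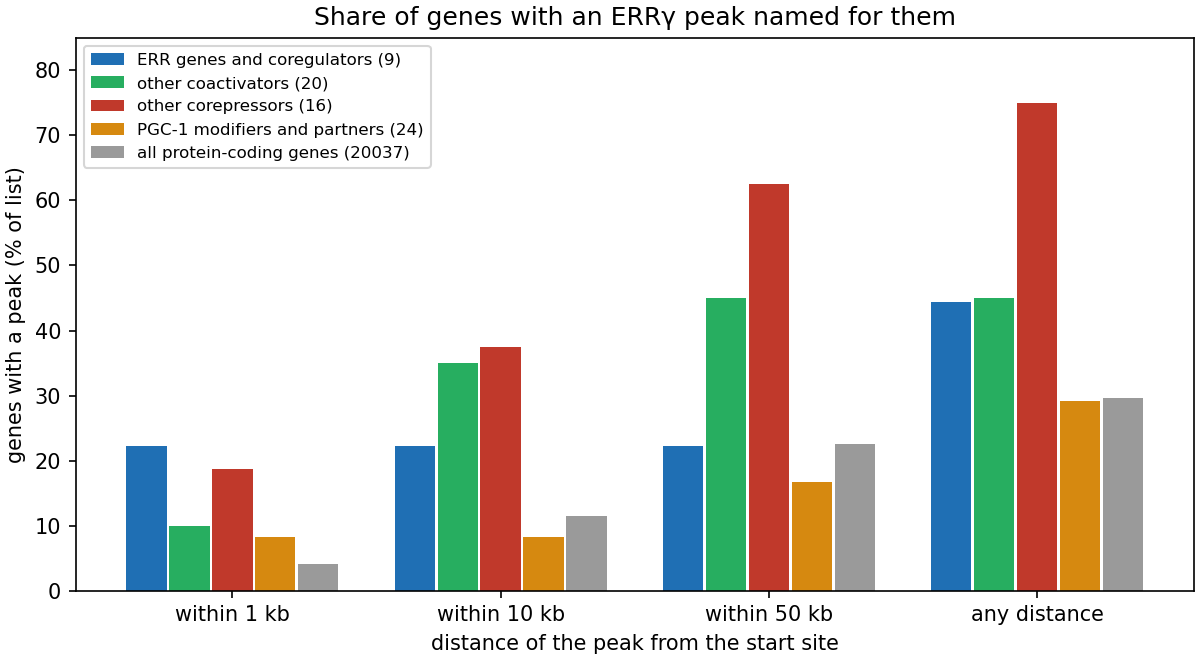
Share of genes (%) with a peak named for them within 1, 10 and 50 kb of the start and at any distance, for the 9 members, the 3 further lists and, at the right of each cluster, all 20037 protein-coding genes. At any distance corepressors reach 75%, and the modifiers and partners of PGC-1 are near the background, 29.2% against 29.6%. The further lists were chosen with earlier results of these data known.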

How the data were processed

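ERRγ ChIP-seq with input DNA was described for BT-474 cells. The tools BWA 0.5.9, MACS 1.4.1 and HOMER 3.18 and the build hg19 come from the submitters' processing notes. Not given in the sources used here are what each tool did, the peak threshold and how the 2 ERRγ libraries were merged. The deposited peak score has no stated unit, and the deposited conservation score is a mean per peak from an unnamed track. The deposited GC content is a fraction of the peak's bases and the CpG content a number per base, although both headers name a percentage. Positions are those of the table.

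Peaks were taken by gene name and checked by identifier. Start sites were computed from the peak centre and the deposited distance. RefSeq tables of GRCh38.p14 gave symbols, gene order, promoter windows and the 20037 protein-coding genes; 99.5% of peaks had an identifier found there. Ranks, counts and letter matches were computed in Python 3.11.15 with pandas 2.3.3 and numpy 2.4.6. The function for letter matching was tested on simulated sequences with AAGGTCA, TGACGTCA or GGGCGG planted. The longer elements TCAAGGTCA and TNAAGGTCA were not planted. Merging and ranking were checked on small made-up examples. There was no value per library, so no test or replicate comparison was made. The members and lists were chosen with earlier results of these data known. All members were named and, of each further list, up to 4 genes with the strongest peak within 10 kb and up to 4 without a peak in alphabetical order, unless stated. Some results for single genes of the lists are not reported here. Alternatives were other distances, the upper 50% and 10% of peaks by score, merging within 500 bp, other naming, leaving out chromosomes 17 and 20, and shorter elements.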

Additional observations from a re-analysis of the deposited data

How the results depend on the processing

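The count of 13 member peaks did not change when peaks placed in a member transcript were added, without chromosomes 17 and 20, or by identifier (an alternative chosen after seeing the data), and was 12 when peaks within 500 bp were merged. Fewer peaks enter under a stricter score, so it was 7 with the upper 50% of peaks and 1 with the upper 10%. The 2 genes with a peak within 10 kb were also counted at 1 kb, at 50 kb, with the annotated transcript counted and without chromosomes 17 and 20. Their number was 4 at any distance and 1, ESRRA, with the upper 50% or the upper 10% of peaks. The median score of 137 was 497 over the strongest peak of each gene, 369 without ESRRG, 124 within 50 kb and 55.3 within 10 kb, where 3 peaks enter. The response element was in 0 member windows as the full or the relaxed form and in 1 as the shorter core. A search of the central 300 bp of peaks was not run, as no sequence of hg19 was used here. No paired analysis was possible because the table holds no value per library. Without the depth of each library, a gene without a peak had no signal past the authors' unstated threshold, which does not show absence of binding.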
